A study of Homo sapiens with 16 samples.

Results

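The mRNA of 7 fatty acid binding and uptake genes was followed across 16 libraries of a gut-liver chip. The genes were chosen by a list of symbols, FABP1, FABP2, FABP5, CD36, SLC27A2, SLC27A4 and DBI, and all 7 were found among the 60623 genes listed in the files. The list itself sets no threshold on a measured value, but it was drawn up with the levels and fold changes of these same 16 libraries known, so the levels and changes below are a description of these 7 genes and support nothing by themselves. The platform joined a chamber of Caco-2, a human colorectal adenocarcinoma line used as the gut part, to a chamber of HepG2, a human hepatocellular carcinoma line used as the liver part. The chambers of a line were run without a partner (mono-culture) or joined to the partner line (co-culture), and each culture was a control or received 1 mM free fatty acids (FFA), palmitic and oleic acid mixed at a molar ratio of 1 to 2. These choices made 8 groups of 2 replicate libraries. In every group the cells were first grown in the chip chambers in serum-containing medium. The study then describes starvation in serum-free medium before the FFA treatment. FFA, from stocks in DMSO, was given in serum-free medium with fatty acid-free albumin. The study's dose series included a dose without fatty acids. It does not describe the medium of the controls separately, or whether they received DMSO. The labels put the FFA exposure at 1 day, which is used here. The study describes sequencing after a shorter and a longer exposure, and its methods for the FFA treatment give only the longer. The sample titles begin with LTC, a prefix whose meaning was not resolved. The duration of exposure of these libraries is therefore uncertain. Both lines are tumour lines. The study states that its sequencing was repeated in independent experiments, but the labels do not tie the replicate numbers to them, so every p-value below measures the spread between these libraries.

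Long-chain fatty acids cross the cell membrane with the help of CD36, a scavenger receptor that binds fatty acids, and of the fatty acid transport proteins of the SLC27 family, which couple entry to activation with coenzyme A. Inside the cell, small soluble fatty acid binding proteins (FABPs) carry the free fatty acids, and DBI, also called acyl-CoA binding protein, carries the activated form. FABP1 is the liver form, abundant in hepatocytes and also made by enterocytes. FABP2 is the intestinal form, a marker of enterocytes, and FABP5 is a form found in epidermis and many other tissues. Of the SLC27 family, SLC27A2 is a transporter and very long-chain acyl-CoA synthetase of liver and kidney, and SLC27A4 is the main member of the small intestine. Transcription of FABP1 is known to depend on the nuclear receptor PPARα, which binds fatty acids, and on the hepatic and intestinal factor HNF4α.

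On GRCh38 with GENCODE 44, FABP1 (ENSG00000163586) lies on the minus strand of chromosome 2 at chr2:88122982-88128062, and DBI (ENSG00000155368) lies on the plus strand of the same chromosome at chr2:119366924-119372550. FABP2 (ENSG00000145384) is on the minus strand at chr4:119317250-119322138. CD36 (ENSG00000135218) lies on a plus strand at chr7:80369575-80679277, SLC27A2 (ENSG00000140284) at chr15:50182196-50236385, also plus, and SLC27A4 (ENSG00000167114) at chr9:128340527-128361470, plus as well. FABP1, FABP2 and DBI have 4 exons each in their canonical transcripts, whereas CD36 has 15, SLC27A4 has 13 and SLC27A2 has 10. The bases just before the start sites of FABP1 and FABP2 are shown because these close relatives are the liver and the intestinal form and both were higher in the liver line. The sequences are RefSeq promoters (GRCh38.p14), 250 bases that end at the base before the start site, at chr2:88128063-88128312 for FABP1 and chr4:119322139-119322388 for FABP2, both written 5′ to 3′ on the minus strand. Capitals mark 2 short motifs that were searched on both strands. The letters AGGTCA are the half-site that nuclear receptors such as the PPARs bind. The letters TATAAA are the core of a TATA box, which positions the start of transcription.
FABP1: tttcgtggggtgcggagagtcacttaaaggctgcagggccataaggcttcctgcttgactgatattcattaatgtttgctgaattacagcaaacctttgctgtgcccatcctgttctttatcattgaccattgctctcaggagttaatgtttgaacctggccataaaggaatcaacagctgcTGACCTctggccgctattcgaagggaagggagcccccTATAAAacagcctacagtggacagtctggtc
FABP2: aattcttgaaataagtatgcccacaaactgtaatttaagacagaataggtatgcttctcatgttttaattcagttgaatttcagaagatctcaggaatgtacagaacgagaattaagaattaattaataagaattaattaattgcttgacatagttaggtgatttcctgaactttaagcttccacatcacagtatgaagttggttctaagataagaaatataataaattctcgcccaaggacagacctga
In the FABP1 sequence the nuclear receptor half-site filled positions -68 to -63 from the start site (which is +1), read on the other strand, and the TATA letters filled -31 to -26. The FABP2 sequence held none of these letters. A longer motif, the DR1 repeat, in which the nuclear receptor half-site is repeated, was searched as well. Only its exact letters (AGGTCA, any base, AGGTCA) were searched, and they were found in neither sequence. Repeats with differing letters were not searched. Among 35116 promoters of this length, the nuclear receptor half-site was present in 12.1%, the TATA letters in 10.7% and the DR1 repeat in 0.0171%. The matches describe letters only, and no binding was measured. Promoters were matched for 6 of the 7 genes by symbol.

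Levels are in CPM, where each library's reads are brought to the same total so that a gene can be set across libraries, and errors are standard deviations (SD) of 2 libraries. The libraries held from 49634 to 1657430 reads assigned to genes, a 33.4-fold range, and the shallowest were both libraries of HepG2 co-culture FFA (147096 and 49634 reads). A floor of 3 reads therefore stood for 1.81 to 60.4 CPM. Floors and the exact intervals of pooled reads cover counting error only, while intervals of fitted log2 differences rest on the spread between libraries. No replicate pair agreed within sampling noise, with a chi-square per degree of freedom of 1.52 to 2.85. Of 8 liver genes used as HepG2 markers (among them ALB, AHSG and APOH), 8 were higher in every HepG2 library than in every Caco-2 library. Of 8 gut genes used as Caco-2 markers, only CDH17 was higher in every Caco-2 library, 6 never passed 10 CPM there and CDX1 was at 0 in all 16 libraries. CDH17 (169 reads in Caco-2, 0 in HepG2) and VIL1 (229 and 117 reads) were read in all 8 Caco-2 libraries. The line names come from the sample titles and not from these markers.

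**Figure D1:**
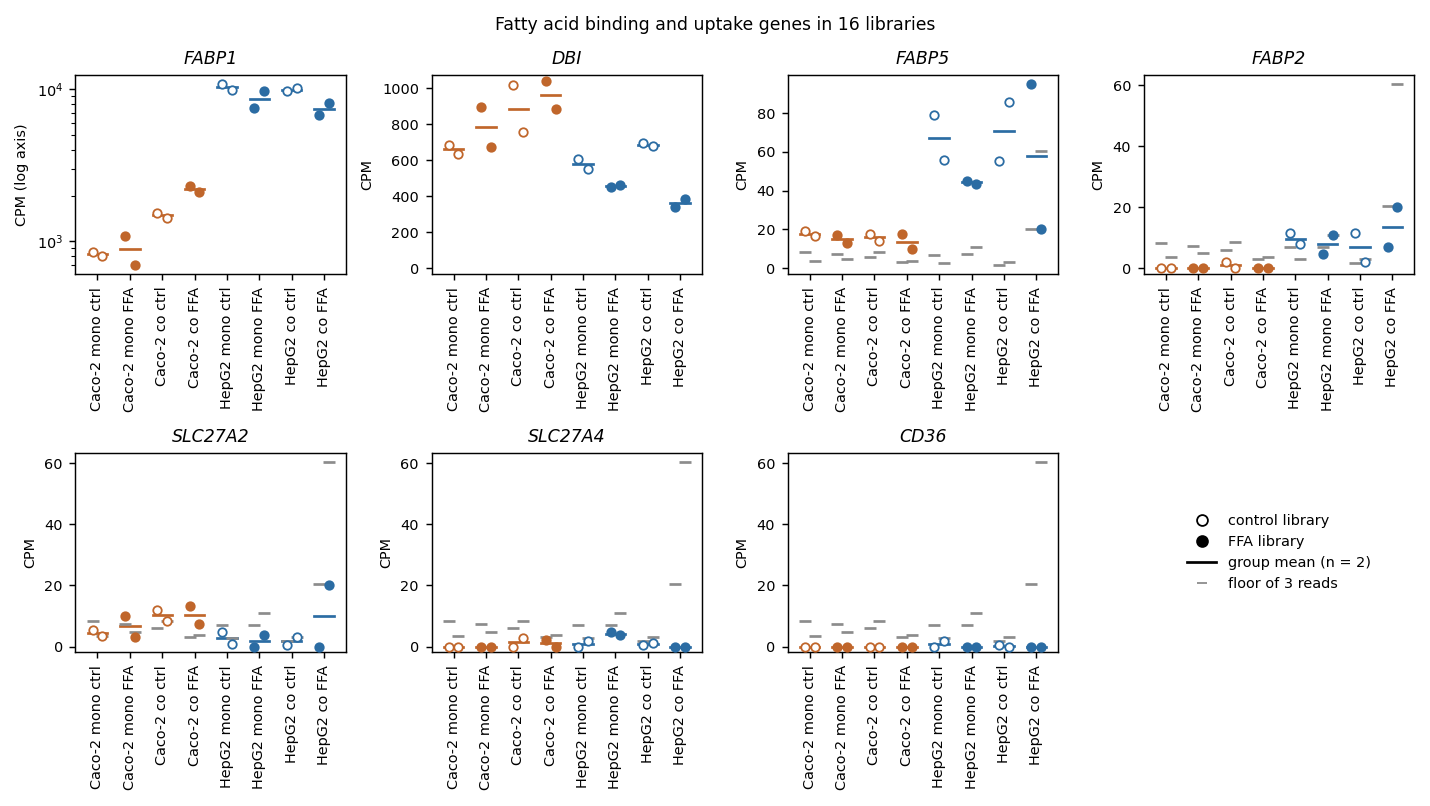
CPM of each of the 7 genes (y axis, log axis for FABP1) in the 16 libraries by group (x axis), with open points for control, filled points for FFA, bars for the mean of 2 libraries and grey ticks for 3 reads. FABP1 lies at 6832 CPM or more in every HepG2 library and at 2313 CPM or less in every Caco-2 library, DBI lies between 340 and 1041 CPM in both lines, and the other genes are near or under their floors in many libraries.

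FABP1, the carrier of free fatty acids in hepatocytes and enterocytes, was high in HepG2 and lower in Caco-2. HepG2 held 47920 FABP1 reads and Caco-2 7110. In HepG2 the libraries read 10921 and 9847 CPM in mono-culture control and 7592 and 9790 CPM in mono-culture FFA. They read 9744 and 10223 CPM in co-culture control and 6832 and 8079 CPM in co-culture FFA. All HepG2 libraries were thus above all Caco-2 libraries, and each HepG2 group overlapped its neighbour in the order of levels.

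In Caco-2, FABP1 was at 846 and 801 CPM in mono-culture control and at 1083 and 699 CPM in mono-culture FFA. The co-culture control libraries read 1547 and 1419 CPM and the co-culture FFA libraries 2313 and 2105 CPM. The 4 co-culture libraries were all above the 4 mono-culture libraries, as for 4.25% of all genes tested, and the 2 with FFA were the highest. With FFA alone, 20% of all genes were higher in co-culture without overlap. The order of the group means was 2209 ± 146 CPM in co-culture FFA, 1483 ± 90.9 in co-culture control, 891 ± 272 in mono-culture FFA and 824 ± 31.3 in mono-culture control (SD, n = 2). The mono-culture groups overlapped, and no other neighbours in this order did. In such bulk libraries a smaller share of cells that express a gene and less mRNA per cell cannot be told apart.

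The first question was whether connecting the gut line to the liver line went with a change of these genes. Fitted over 15454 genes in Caco-2 with limma on log2(CPM + 1), FABP1 was 2.13-fold higher in co-culture than in mono-culture averaged over treatment (log2 difference 1.09, SE 0.11, 95% confidence interval 0.86 to 1.33, adjusted p = 0.000241). The median log2 difference of all genes in that comparison was 0.14, and relative to it the difference of FABP1 was 0.95. FABP1 alone of the 5 members tested passed there, beside 0.453% of all genes tested and 0.317% that passed as higher. With FFA the log2 difference was 1.34 (SE 0.16, adjusted p = 0.00224), a 2.53-fold difference, and FABP1 again was the 1 member that passed, beside 0.0971% of all genes.

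Without FFA, the log2 difference of FABP1 between co-culture and mono-culture was 0.85 (SE 0.16, interval 0.51 to 1.18). It did not pass over all genes, with an unadjusted p of 9.29e-05 and a limma adjusted p of 0.0624, and no other member passed, beside 0.0971% of all genes. Groups did not overlap for 3 of the 5 members tested, all higher in co-culture, where 22% of all genes were higher without overlap. The other 2 were DBI, with a log2 difference of 0.41 (SE 0.16, limma adjusted p = 0.408, 0.19 to 0.62 over leave-one-out fits), and SLC27A2, with 1.03 (SE 0.70, limma adjusted p = 0.625). In fits that left out each Caco-2 library in turn, the averaged difference of FABP1 passed in 1 of 8 (without mono-culture FFA replicate 2, 0.94), with limma adjusted p of 0.0313 to 0.202 and sizes of 0.94 to 1.25. The difference with FFA passed in 1 of 8 as well, without the same library, with limma adjusted p of 0.0170 to 0.288 and sizes of 1.03 to 1.66.

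**Figure D2:**
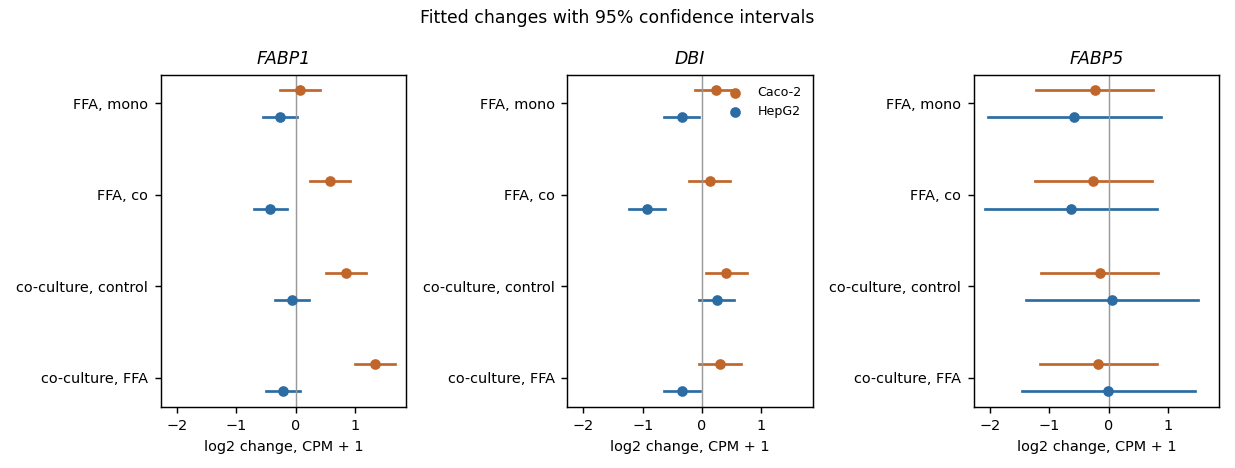
Log2 changes on the CPM + 1 scale (x axis) of FABP1, DBI and FABP5 for FFA against control in each culture and for co-culture against mono-culture under each treatment (y axis), with points for the fitted change in Caco-2 and in HepG2 and lines for 95% confidence intervals. The FABP1 points for co-culture in Caco-2 sit at 0.85 and 1.34, and the DBI point for FFA in HepG2 co-culture sits at -0.93, while every FABP5 interval includes 0.

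The liver markers were read beside FABP1 in the Caco-2 libraries. The summed level of the 8 liver markers in Caco-2 was 1664 to 2088 CPM in the mono-culture libraries and 1867 to 2303 CPM in the co-culture libraries, against 12940 to 32336 CPM in HepG2. FABP1 rose by 989 CPM on average from mono-culture to co-culture in Caco-2, which is 10.8% of its mean level in HepG2 (9129 CPM). The same step was 6.83% of the HepG2 level for F2, 4.34% for APOH, 3.15% for SERPINC1 and 2.46% for ALB. It was 0.223% for FGA, 0.222% for FGB, 0.119% for HP and -2.11% for AHSG.

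In HepG2 no member passed in any comparison of co-culture with mono-culture, where 0 of 14430 genes (0%) passed in limma and 377 (control), 2118 (FFA) and 1114 (averaged) had an unadjusted p under 0.05. The HepG2 co-culture libraries of FABP1 spanned 6832 to 10223 CPM and the mono-culture libraries 7592 to 10921 CPM, which overlap. The difference between the lines in the co-culture effect was tested in a fit over all 16 libraries. For FABP1 the log2 effect of co-culture was lower in HepG2 than in Caco-2 by 1.23 (interaction -1.23, SE 0.16, interval -1.58 to -0.88, limma adjusted p = 0.00689). FABP1 was the only one of 6 members tested that passed, beside 0.0969% of all genes. This interaction passed in 11 of 16 leave-one-out fits, with limma adjusted p of 0.00584 to 0.110 and sizes of -1.39 to -1.07. Of the 11 alternatives it passed in 9, and it did not pass with a constant prior variance (limma adjusted p = 0.177) or after all libraries were thinned to 49634 reads (-1.07, limma adjusted p = 0.0865). Of the leave-one-out fits, it did not pass without Caco-2 co-culture FFA replicate 1 (-1.20), Caco-2 mono-culture control replicate 1 (-1.25), HepG2 co-culture control replicate 1 (-1.21) or 2 (-1.25) or HepG2 mono-culture control replicate 1 (-1.19).

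The second question was whether the genes of fatty acid handling changed when FFA was supplied. In Caco-2 no member passed in either culture, where limma called 1 gene in mono-culture (0.00647%) and 0 in co-culture, with 896 and 754 genes at an unadjusted p under 0.05. In mono-culture the groups overlapped for all 5 members tested, while 26.3% of all genes did not overlap. In co-culture FABP1 was 1.49-fold higher with FFA (log2 change 0.57, SE 0.16, interval 0.24 to 0.91, limma adjusted p = 0.862), and its groups did not overlap, as for 30.1% of all genes. No other member in co-culture had groups apart.

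DBI, the acyl-CoA carrier, had the FFA difference with the smallest p among the members tested in HepG2. Its HepG2 libraries read 608 and 551 CPM in mono-culture control and 450 and 462 CPM in mono-culture FFA. In co-culture they read 693 and 681 CPM without FFA and 340 and 383 CPM with it, the last from 50 and 19 reads. All 4 FFA libraries were below all 4 control libraries. The summed liver markers were highest in the co-culture FFA libraries (18872 and 32336 CPM, against 12940 to 18646 CPM in the other HepG2 libraries). The summed gut markers were highest in the same libraries (61.2 and 101 CPM, against 14.5 to 24.4 CPM in the other HepG2 libraries), where 7 of the 8 were at 0 in both. The part of depth and of these shifts in the result was not tested. The log2 change in co-culture was -0.93 (SE 0.13, interval -1.23 to -0.63, limma adjusted p = 0.0735), or -0.66 relative to the median of all genes, which was itself at -0.26 there. In mono-culture it was -0.34 (SE 0.13, limma adjusted p = 0.760), and averaged over both cultures -0.64 (SE 0.09, interval -0.85 to -0.43, limma adjusted p = 0.0596). None of these passed, and DBI was the only member without overlap in the averaged comparison, where 3.36% of all genes were lower without overlap. In the averaged comparison limma called 0.0762% of all genes.

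The DBI change passed in some fits and not in others. Without HepG2 co-culture FFA replicate 1 or 2 the co-culture change was -0.84 or -1.01 and passed (limma adjusted p = 0.0136 and 0.0248), whereas no other of its 8 leave-one-out fits passed. The averaged change passed in 4 of 8. These left out co-culture FFA replicate 1 (-0.59, limma adjusted p = 0.0193), mono-culture control replicate 2 (-0.67, limma adjusted p = 0.0199), or mono-culture FFA replicate 1 (-0.63, limma adjusted p = 0.0494) or 2 (-0.65, limma adjusted p = 0.0406). Count models on the recovered reads called both changes, with a co-culture change of -1.60 in edgeR and -1.33 in DESeq2. Of 14430 genes, edgeR called 33 higher and 423 lower in co-culture, and DESeq2 called 25 higher and 268 lower. Averaged over culture, edgeR called 47 higher and 583 lower, and DESeq2 called 48 higher and 296 lower. Within HepG2, the co-culture libraries of DBI were above the mono-culture libraries without FFA (log2 difference 0.25, SE 0.13, limma adjusted p = 1), where 32.9% of all genes had no overlap, and below them with FFA (-0.34, SE 0.13, limma adjusted p = 0.287), where 27% had none.

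FABP1 in HepG2 was also lower with FFA, but by less. The log2 change was -0.27 in mono-culture (SE 0.12, limma adjusted p = 0.813) and -0.43 in co-culture (SE 0.12, interval -0.71 to -0.14, limma adjusted p = 0.215), and relative to the median of all genes the latter was -0.16. Rescaling by median ratios moved the co-culture change of FABP1 to -0.84, edgeR to -1.11 and DESeq2 to -0.84, each of which passed. Over all genes these 3 called 79, 423 and 268 lower and 4, 33 and 25 higher. With quantile scaling the FABP1 change was -0.26 and did not pass, and after thinning it did not pass either (limma adjusted p = 0.810). The mono-culture change was -0.45 to -0.08 over leave-one-out fits, none of which passed, and -0.42 in DESeq2, where it passed (DESeq2 adjusted p = 0.0310). In both cultures every FFA library was below every control library of that culture. FABP5 was lower with FFA in mono-culture without overlap as well (-0.57, SE 0.63, limma adjusted p = 0.933), with an interval of -2.03 to 0.88. Counted over the 6 members tested, groups did not overlap for 4 in mono-culture (3 lower) and for 3 in co-culture (all lower), beside 32.5% and 42.7% of all genes (12.3% and 25.2% lower). SLC27A4 was the higher member in mono-culture and, beside FABP1 and DBI, a lower one in co-culture. It had 7 reads in HepG2, at most 2 in a library, and was at 0 in the shallow co-culture FFA libraries. In the mono-culture and co-culture comparisons of FFA limma called 0 genes, and 904 and 2297 had an unadjusted p under 0.05.

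In Caco-2, DBI read 687 and 635 CPM in mono-culture control, 895 and 675 CPM in mono-culture FFA, 1018 and 755 CPM in co-culture control and 1041 and 883 CPM in co-culture FFA. Each of these groups overlapped its neighbours among the 4. The HepG2 groups were ordered 687 ± 8.80 CPM in co-culture control, 580 ± 40.2 in mono-culture control, 456 ± 8.58 in mono-culture FFA and 361 ± 30.3 in co-culture FFA (SD, n = 2), with no overlap between any of these neighbours. The ranges of the lines overlapped, since the lowest Caco-2 library (635 CPM) was below the highest HepG2 library (693 CPM).

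Set between the lines over all 16 libraries (17544 genes), 4 of 6 members tested passed, 3 higher and 1 lower in HepG2, beside 30.3% of all genes (12.5% higher and 17.9% lower). FABP1 was 7.29-fold higher in HepG2 (log2 difference 2.87, SE 0.08, interval 2.69 to 3.04, limma adjusted p = 6.78e-12). FABP5 was higher by 1.77 (SE 0.29, limma adjusted p = 0.000286) and FABP2 by 2.99 (SE 0.45, limma adjusted p = 0.000138). DBI was lower by 0.68 (log2 difference -0.68, SE 0.08, limma adjusted p = 1.62e-05), with overlapping libraries. After thinning to 49634 reads that difference was -0.62 and did not pass (limma adjusted p = 0.130), while it passed in the other 10 alternatives. The median over all genes was -0.16. Without overlap were FABP1, FABP2 and FABP5, 3 of 6 members, beside 10.3% of all genes. Since the members were listed with these levels known, the count is a description.

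FABP2, the intestinal carrier, was almost absent from the gut line. Caco-2 held 1 FABP2 read among 4888028 in its 8 libraries, in co-culture control replicate 1. HepG2 held 41 reads among 4953377 and had at least 1 in each of its 8 libraries. These were 5 and 8 reads in mono-culture control, 2 and 3 in mono-culture FFA, 19 and 2 in co-culture control and 1 and 1 in co-culture FFA, or 2.11 to 20.2 CPM. The single Caco-2 read stood for 1.98 CPM, so its gap to the lowest HepG2 library at 2.11 CPM is no more than a single read. Pooled per line, the ratio of HepG2 to Caco-2 was 40.5, with an exact 95% counting interval of 6.87 to 1637. After all libraries were thinned to 49634 reads the difference no longer passed (log2 1.10, limma adjusted p = 0.639), and at such counts no change with FFA or co-culture was detectable within HepG2.

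FABP5, the epidermal form (ENSG00000164687, plus strand, 4 exons), lies at chr8:81280536-81284777. It read 9.86 to 19.2 CPM over the Caco-2 libraries, from 5 to 17 reads each. In HepG2 it read 78.9 and 55.7 CPM in mono-culture control, 44.8 and 43.7 CPM in mono-culture FFA, 55.5 and 85.6 CPM in co-culture control and 95.2 and 20.2 CPM in co-culture FFA. The last library held 1 FABP5 read, so the gap between its 20.2 CPM and the highest Caco-2 library at 19.2 CPM is no more than a single read. FABP5 has processed copies in the genome that share most of its sequence. Of 13 listed copies (FABP5P), 4 had reads, 110 in all of which 98 were on FABP5P7, against 385 reads on FABP5 itself. The copies took 23.5% of the reads of the family in Caco-2 and 21.9% in HepG2, so the FABP5 level is uncertain by about that share. For DBI, 2 listed copies (DBIP) held 1 read against 7092.

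The membrane side of uptake was barely sampled. CD36, the fatty acid receptor, had 0 reads in the 8 Caco-2 libraries, where 3 reads of 4888028 would be 0.614 CPM, and 3 reads in HepG2 (2 in mono-culture control replicate 2 and 1 in co-culture control replicate 1). SLC27A4 had 3 reads in Caco-2 and 7 in HepG2, with at most 2 in a library, so no fold is given. SLC27A2 was the best covered transporter among the members, with 39 reads in Caco-2 (2 to 13 per library, 3.22 to 13.3 CPM) and 9 in HepG2 (0 to 3 per library). Pooled per line, SLC27A2 was 4.39-fold higher in Caco-2 (exact 95% counting interval 2.09 to 10.3), though in the fit over libraries it did not pass (log2 difference of HepG2 to Caco-2 -1.42, SE 0.62, limma adjusted p = 0.10023). Without HepG2 co-culture FFA replicate 2, where 1 read stood for 20.1 CPM, that difference was -1.98 and passed (limma adjusted p = 0.00759). It was -0.87 without replicate 1 of that group and spanned -2.45 to -0.41 over the 11 alternatives, of which 1 passed (edgeR adjusted p = 0.0127).

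Beside the 7 members, 34 other genes of fatty acid handling were read, 12 binding proteins, 8 uptake genes, 5 acyl-CoA synthetases that activate fatty acids and 9 transcriptional regulators. None of the 26 tested in Caco-2 or the 23 tested in HepG2 passed in any comparison within a line in limma. An unadjusted p under 0.05 was reached by 1 to 5 of 26 in Caco-2, beside 4.85% to 11.8% of all genes. In HepG2 it was reached by 1 to 6 of 23, beside 2.61% to 15.9%. The most were 5 for the Caco-2 interaction of FFA and culture (5.02% of all genes) and 6 for FFA averaged over culture in HepG2 (13.8%). The fewest were 1 for FFA averaged in Caco-2 (4.85%), and 1 for co-culture in HepG2 without FFA (2.61%) and averaged (7.72%). Between the lines 11 of 29 passed, 3 higher and 8 lower in HepG2, beside 30.3% of all genes, and their median log2 difference was -0.45 against -0.16 over all genes. The list was written with earlier results known, and the counts describe it only.

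Among the other binding proteins, FABP3, the heart and muscle form, was found in the gut line alone. It had 247 reads in Caco-2, 12 to 61 per library and 32.8 to 62.8 CPM, and 0 in all 8 HepG2 libraries (limma adjusted p = 2.19e-09). Against a floor of 3 reads over the pooled HepG2 reads it was 83.4-fold higher in Caco-2. The exact 95% counting interval of the pooled ratio had a lower bound of 67.3 and no upper bound. ACBD5, a membrane-anchored acyl-CoA binding protein of peroxisomes, had 253 reads in Caco-2 and 31 in HepG2 (log2 difference -3.29, SE 0.37, limma adjusted p = 1.01e-05), a pooled ratio of 8.27 (exact 95% counting interval 5.68 to 12.4). FABP6, the ileal bile acid carrier, had 8 reads in Caco-2 and 0 in HepG2, at most 2 in a library. Of the 8 binding proteins tested, 3 passed, all lower in HepG2, and their median log2 difference was -0.66.

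Among the uptake genes, CAV1, the caveolar coat protein, had 49 reads in Caco-2 and 0 in HepG2, at least 16.6-fold higher in Caco-2 against the same floor (limma adjusted p = 9.87e-06). SLC27A5, the liver transporter that also activates bile acids, had 29 reads in Caco-2 and 150 in HepG2 (log2 difference 1.54, SE 0.55, limma adjusted p = 0.0470), a pooled ratio of 5.10 (3.41 to 7.88). Of the synthetases, ACSL4 was higher in HepG2 by 1.25 (SE 0.33, limma adjusted p = 0.0112) and ACSL3 by 0.46 (SE 0.16, limma adjusted p = 0.0442), 2 of 5 tested.

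**Figure D3:**
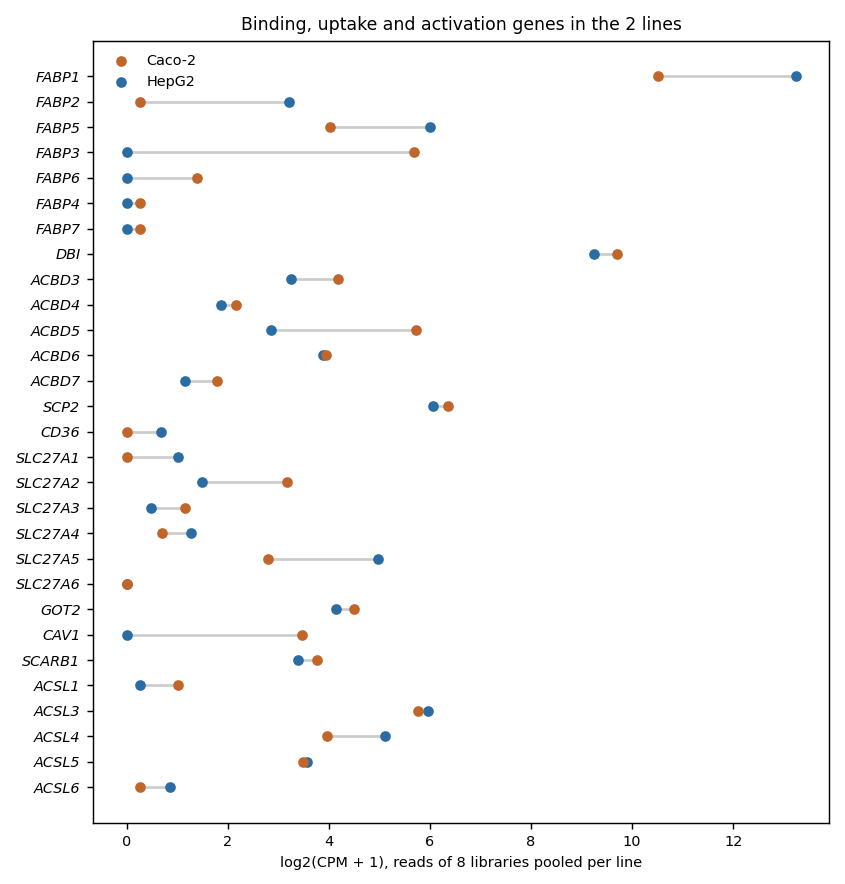
Level of each gene in Caco-2 and in HepG2 (x axis, log2 of CPM + 1 from the reads of 8 libraries pooled per line, no error shown) for the members and other binding, uptake and activation genes (y axis). FABP1 and FABP5 lie to the right in HepG2, FABP3, ACBD5 and CAV1 in Caco-2, and CD36 near 0 in both.

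The regulators of FABP1 were at few reads. PPARA, the receptor that binds fatty acids, had 40 reads in Caco-2 and 58 in HepG2, PPARG 31 and 36, and PPARD 8 and 10. HNF4A had 52 and 20 (log2 difference -1.64, SE 0.49, limma adjusted p = 0.0200). The part of any regulator in the FABP1 levels was not tested. RXRA and CDX2 were also lower in HepG2, 20 reads against 2 and 17 against 0. In Caco-2, PPARA read 9.19 ± 6.35 CPM in mono-culture control, 0.80 ± 1.13 in mono-culture FFA, 13.4 ± 4.98 in co-culture control and 10.4 ± 4.21 in co-culture FFA (SD, n = 2). HNF4A there read 11.2 ± 7.45, 11.9 ± 7.70, 17.4 ± 0.62 and 8.10 ± 4.50 CPM in the same order. No regulator passed within a line.

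Profiles like that of FABP1 were sought by the root mean square difference of log2 levels, each gene about its own mean, over the 8 libraries of a line. In Caco-2, among 1922 genes whose mean was 50 CPM or more, SRSF5 (a splicing factor) was the nearest at 0.168, then SMLR1 at 0.186 and C14orf119 at 0.209, where the median gene was at 0.624. SRSF5 read 140 to 164 CPM in mono-culture control, 148 to 255 in mono-culture FFA, 293 to 316 in co-culture control and 339 to 451 in co-culture FFA. In HepG2, among 2028 genes, the nearest were MRPS15 (a mitochondrial ribosomal protein) at 0.0892, COX7A2 at 0.0923 and COX6A1 at 0.0991 (both cytochrome c oxidase subunits), where the median gene was at 0.406. The neighbours were different genes in the lines, and the same 3 were nearest in each when genes of at least 20 CPM were ranked. Libraries and their depth are shared by the genes ranked, and the ranking is a description over 8 libraries.

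**Figure D4:**
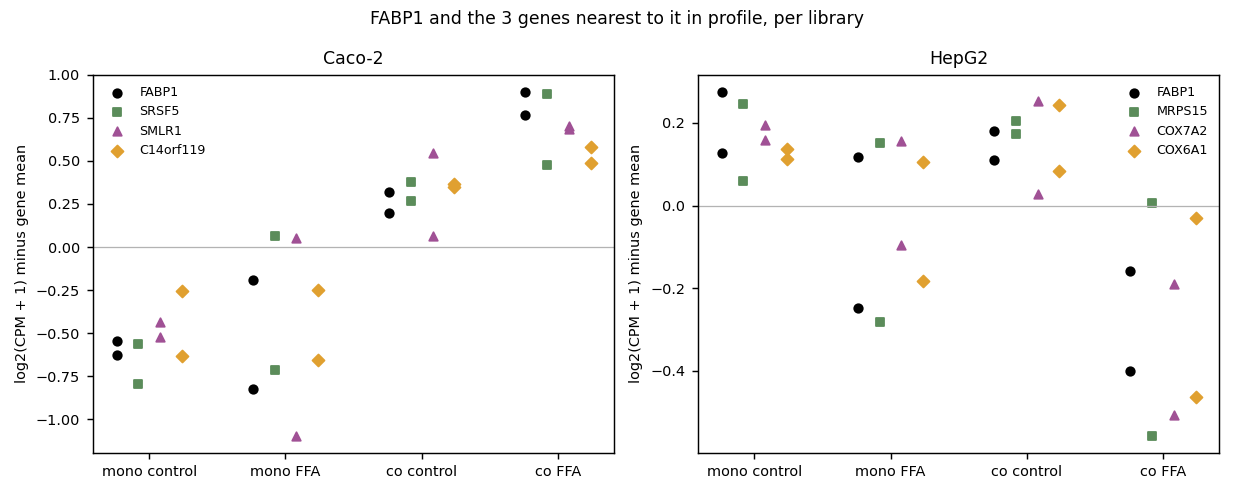
Log2(CPM + 1) of FABP1 and its 3 nearest genes, less the mean of each gene over 8 libraries (y axis), by group (x axis) in Caco-2 and in HepG2, 1 point per library. In Caco-2 the points of FABP1 and SRSF5 lie highest in co-culture FFA, and in HepG2 all 4 genes lie lowest in a co-culture FFA library.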

How the data were processed

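Polyadenylated RNA of Caco-2 and HepG2 cells was reverse-transcribed, amplified by PCR with barcodes and sequenced on Nanopore flow cells. Per the submitters' processing notes reads were aligned with minimap2 2.22 to GRCh38. The methods also describe removal of ribosomal, transfer and mitochondrial reads, and it is not given in the sources used here whether that was applied to these libraries (mitochondrial genes held 2.73% to 10.6% of reads).

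The deposited values are named TPM, but within each library 99.3% to 100% of them were whole multiples of 1 step (tolerance 0.05 read), so the authors' values were treated as CPM and the reads recovered. Of the identifiers, 99.459% were in GENCODE 44.

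Genes that reached a mean of 1 CPM in any group were fitted on log2(CPM + 1) by limma (version 3.58.1, R 4.3.3), in Caco-2 (15454 genes), HepG2 (14430) and both (17544), with the prior variance following the mean. Adjustment was Benjamini-Hochberg, over every gene of a fit, and calls were made at 0.05. The labels give no batch, run or date. The fits were tested on simulated reads. Alternatives were another pseudocount (0.1 or 10), a low-value filter removed or raised to 10 CPM, scaling by quantiles or by median ratios, 1 prior variance for all genes, a replicate block, edgeR 4.0.16 and DESeq2 1.42.0 on recovered reads, the study's kind of threshold (unadjusted p of 0.05, 1.2-fold), thinning to 49634 reads and leave-one-out fits.

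The members and lists were chosen with earlier results of these data known. The members were named in every library, with log2 changes where their groups did not overlap or passed and a library held over 3 reads. Of the other lists, genes that passed were named (up to 5 by size, others by count or chosen after their values were seen), with PPARA, PPARG, PPARD and HNF4A and the 3 genes nearest to FABP1. Another regulator is not reported here. Ratios of pooled reads have exact 95% intervals.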

Additional observations from a re-analysis of the deposited data

Results flagged for a closer look

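The effect of co-culture on FABP1 differed between the lines. The log2 effect in HepG2 minus that in Caco-2 was -1.23 (SE 0.16, limma adjusted p = 0.00689, over 16 libraries), and it is singled out because the difference itself passed the test. It did not pass with a constant prior variance (limma adjusted p = 0.177), after thinning (limma adjusted p = 0.0865) or in 5 of 16 leave-one-out fits. The 4 co-culture libraries of Caco-2 were above its 4 mono-culture libraries, while those of HepG2 overlapped. The summed liver markers in Caco-2 were at 1664 to 2088 CPM in mono-culture and at 1867 to 2303 CPM in co-culture, ranges that overlap, and their part in the result was not tested.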

How the results depend on the processing

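No log2 change of a member given in the report changed sign under any alternative, and the difference of FABP1 between the lines passed in all 11 alternatives and all 16 leave-one-out fits. Depth limits the HepG2 co-culture FFA libraries and all members but FABP1 and DBI. The cause of the changes below was not tested, except that leave-one-out fits use fewer samples and thinning removes reads. The counts are of members that passed, unless the other genes are named.

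In Caco-2, FABP1 with FFA between cultures was lost with a pseudocount of 0.1, a constant prior variance and thinning (0 members instead of 1). Over all genes the pseudocount of 0.1 called 1 higher and 0 lower there. A constant prior variance and thinning called 0 of 15454 genes, so every call was lost with them. Averaged over treatment FABP1 was lost with a constant prior variance and thinning (0 members), where 0 of 15454 genes passed. In that comparison 2 members passed with a 10 CPM filter, with the replicate block and at the unadjusted threshold with a 1.2-fold change. Over all genes the report's fit called 49 higher and 21 lower, the 10 CPM filter 212 and 110 (of 6481) and the replicate block 129 and 81. The FABP1 adjusted p there was 7.06e-14 to 0.443. In control cultures 1 member instead of 0 passed with a pseudocount of 10, the filter removed, a 10 CPM filter, quantile scaling, the replicate block, edgeR and DESeq2, and 2 at the unadjusted threshold. From the pseudocount of 10 to DESeq2, in that order, 25, 37, 77, 18, 38, 33 and 21 of all genes were called higher. In the same order 2, 5, 16, 3, 8, 31 and 44 were called lower, and the report's fit called 13 higher and 2 lower. For FFA in co-culture 1 passed with edgeR and 1 at the unadjusted threshold, which also passed 1 for FFA averaged over culture and 1 for the interaction. Over all genes edgeR called 1 higher and 5 lower for FFA in co-culture.

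In HepG2, for FFA in co-culture, 1 member instead of 0 passed with a pseudocount of 0.1 and quantile scaling, and 2 (DBI among them) with median-ratio scaling, edgeR, DESeq2 and the unadjusted threshold. Over all genes, median-ratio scaling called 79 lower and 4 higher there, edgeR 423 and 33, and DESeq2 268 and 25. With a pseudocount of 0.1 the counts were 38 lower and 9 higher, and with quantile scaling 64 and 38. Averaged over culture, 1 passed with a 10 CPM filter and quantile scaling, and 2 with median-ratio scaling, edgeR, DESeq2 and the unadjusted threshold. Over all genes the 10 CPM filter called 32 higher and 10 lower there, quantile scaling 47 and 30, and median-ratio scaling 4 and 49. For the same comparison edgeR called 47 and 583, and DESeq2 48 and 296. In mono-culture 1 passed with DESeq2, which called 5 higher and 26 lower over all genes, and 1 at the unadjusted threshold. For co-culture with FFA, 1 passed with DESeq2 and 2 at the unadjusted threshold, averaged over treatment 1 with DESeq2, and for the interaction 1 at the unadjusted threshold. Over all genes DESeq2 called 10 higher and 105 lower for co-culture with FFA, and 11 and 33 averaged over treatment. Between the lines, the difference in the FFA effect gave 1 member instead of 0 with a pseudocount of 0.1, a 10 CPM filter, quantile scaling and thinning, and 2 with median-ratio scaling, edgeR, DESeq2 and the unadjusted threshold. Over all genes the report's fit called 10 higher and 6 lower there. The pseudocount of 0.1 called 38 and 162, the 10 CPM filter 27 and 22, quantile scaling 15 and 12, and thinning 124 and 88. Median-ratio scaling called 3 and 64, edgeR 11 and 593, and DESeq2 58 and 280. The difference in the co-culture effect gave 0 instead of 1 with a constant prior variance, 1 that was not FABP1 after thinning and 3 at the unadjusted threshold. Over all genes the report's fit called 4 higher and 13 lower there, a constant prior variance 5 and 49, and thinning 108 and 99.

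Of the other genes, 0 passed within the lines in the report's fit. At the unadjusted threshold these were, in Caco-2, 2 for FFA in mono-culture, 2 in co-culture and 1 averaged, 2 for co-culture in control, 4 with FFA and 3 averaged, and 5 for the interaction. In HepG2 they were 4, 4 and 6 for FFA, 1, 2 and 1 for co-culture and 3 for the interaction, and a constant prior variance gave 1 for FFA in co-culture and 1 for co-culture with FFA. Between the lines the difference in FFA effect gave 1 with a pseudocount of 0.1 and 6 at the unadjusted threshold, and that in co-culture effect 1 and 1. Of 11 that differed between the lines, 6 passed with DESeq2 (1 had no adjusted p) and 3 after thinning. Over all genes the report's fit called 2190 higher and 3132 lower in HepG2, DESeq2 1762 and 2353, and thinning 564 and 628.

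Leave-one-out fits gave 0 to 1 members in Caco-2 for co-culture with FFA and averaged, 0 to 2 in HepG2 for FFA in co-culture and averaged, 0 to 2 for the line difference in FFA effect and 0 to 1 for that in co-culture effect. For the other genes in HepG2 they gave 0 to 1 for FFA in mono-culture, 0 to 5 in co-culture, 0 to 5 averaged, 0 to 1 for co-culture in control, 0 to 4 with FFA, 0 to 1 averaged and 0 to 2 for the interaction, and between the lines 0 to 5 and 0 to 4 for the differences in FFA and in co-culture effect. Replicates of different groups share a number in the labels and nothing that ties them. Their deviations had a mean correlation of 0.0120 in Caco-2 and 0.00332 in HepG2 over genes (0.151 and 0.0529 at 100 CPM or more), and under the replicate block no member's call was lost.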
